A study of Homo sapiens with 4 samples.

Results

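The 9 enzymes described here, SHMT1, SHMT2, MTHFD1, MTHFD2, MTHFD1L, GLDC, AMT, GCSH and ALDH1L2, carry out the folate cycle and the cleavage of glycine, and were taken by gene name from the 43317 gene names on the array. All 9 were found, with 13 probes on 22 spots. The study measured total RNA of HCT116 cells, an established colorectal cancer line, and A549 cells, an established lung cancer line, each transfected with the microRNA miR-891b or with the negative control RNA NC1. Each line thus had an NC1 group and a miR-891b group, and each of the 4 groups had 1 single-colour Agilent array, so no difference within a line has a replicate check. Both lines received the same transfection reagent. HCT116 cells were grown in McCoy's 5A medium and A549 cells in DMEM, and each line had a slide of its own, so line, medium and slide cannot be told apart. The title of the series concerns PSAT1, an enzyme of serine synthesis; the 9 enzymes handle the carbon of serine and glycine after that step, and their mRNAs were compared between miR-891b and NC1 cells of each line. Probe positions are given without exon or UTR annotation, which was not used here.

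Folate carries single-carbon units that cells use to build purines, thymidylate and methionine. Serine is their main donor: a serine hydroxymethyltransferase, SHMT2 in mitochondria and SHMT1 in the cytosol, splits it into glycine and a folate-bound carbon. In mitochondria MTHFD2 oxidises that carbon and MTHFD1L releases it as formate, which MTHFD1 takes up again in the cytosol, while ALDH1L2 oxidises it to carbon dioxide. The glycine cleavage system, built from GLDC, AMT, GCSH and a lipoamide dehydrogenase, breaks glycine down and passes its carbon to folate. The mitochondrial arm of this pathway is known for high expression in proliferating cancer cells.

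The transfected RNA is shown first, because a microRNA acts on transcripts mainly through its seed. RefSeq (GRCh38.p14) gives the mature microRNA as follows, with the seed (bases 2 to 8) in capitals.
hsa-miR-891b: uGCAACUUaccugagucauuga
The matching site in a transcript reads AAGTTGC. It was in 0 of the 13 probes of the enzymes and in 0.393% of all 58201 gene probes. A probe covers only 60 bases of a transcript, so this says nothing of the rest of each mRNA.

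Each array had 60901 gene spots, none of them saturated. Between 44.7% and 50.3% of gene probes were well above background, by the mark that the scanner software sets. Levels are given as the log2 signal minus the array's 75th percentile, and changes as miR-891b minus NC1 on that scale. Probes printed at 5 or more spots gave an error for a change within a line: the median SD of the difference between repeat spots was 0.062 over 276 probes in HCT116 and 0.071 over 287 in A549, which covers the spots and not the cultures. For a single probe, the spot SD quoted below is the median over the 30 such probes nearest in level. Only spots well above background entered it. The probes of ALDH1L2 and AMT, although unlike in level, all received 0.087 in HCT116 and 0.096 in A549. For these dim probes the nearest repeated probes may be brighter, so the spot SD may understate their error. The dimmest MTHFD1L probe shares the HCT116 value. Of the 6 markers listed for A549, 6 were well above background on both A549 arrays and all were higher there, while 5 or 4 were above background on the HCT116 arrays and ALDH1A1 on neither. One of them, AKR1B10, was higher by 4.47 with miR-891b in HCT116. Of the HCT116 markers, CDX2, EPCAM, CLDN3 and CLDN7 were higher in HCT116, CDH1 differed by -0.24 (A549 minus HCT116, NC1 arrays), and LGALS4 went against its label, since it was not well above background in HCT116. Fibroblasts are also named in the culture protocol. Of 9 fibroblast markers, 2 were well above background on each HCT116 array and 4 on each A549 array, with COL1A2, COL3A1, DCN, POSTN and FAP on none. The log2 summed fibroblast level was 1.43 and 1.17 in HCT116 (NC1 and miR-891b) and 2.10 and 3.40 in A549. The A549 rise was that of LUM, with levels of 1.03 and 3.17. The other markers above background in A549, COL1A1, THY1 and PDGFRB, had changes of -0.59, -1.04 and -0.041. The part of fibroblast signal in the results was not tested. In areas of stray signal, at least 10% of the nearby spots that were dim on every other array were bright on the array in question. Such areas held 10.5% of the gene spots of the HCT116 miR-891b array and 2.20% or less on each other array.

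All 9 enzymes were well above background on all 4 arrays, through at least the probe that stands for the gene, and 12 of the 13 probes were. With miR-891b, 0 enzymes were at least 2-fold lower in HCT116, where 0.843% of 19104 measured genes were, and 1 of 9, GLDC, was in A549, where 5.57% of 21335 genes were. None was at least 2-fold higher in either line (1.16% of genes in HCT116 and 4.01% in A549; 2% and 9.58% of genes passed 2-fold either way). At 1.5-fold 0 were lower in HCT116, where 5.65% of genes were, and GLDC, SHMT1 and MTHFD1, 3 of 9, were in A549, where 15.3% were. The median change of the 9 was -0.12 in HCT116 and -0.34 in A549, beside medians over all measured genes of -0.041 and -0.059. In HCT116 6 of 9 were below 0 and in A549 7 of 9, where 55.5% and 55.6% of all genes were. SHMT1, SHMT2, MTHFD1, MTHFD2 and GCSH, 5 of 9, were below 0 in both lines, as were 33.8% of the 18063 genes measured on all 4 arrays. MTHFD1L, GLDC and AMT, 3 of 9, had opposite signs in the lines, as had 45.1% of genes.

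**Figure D1:**
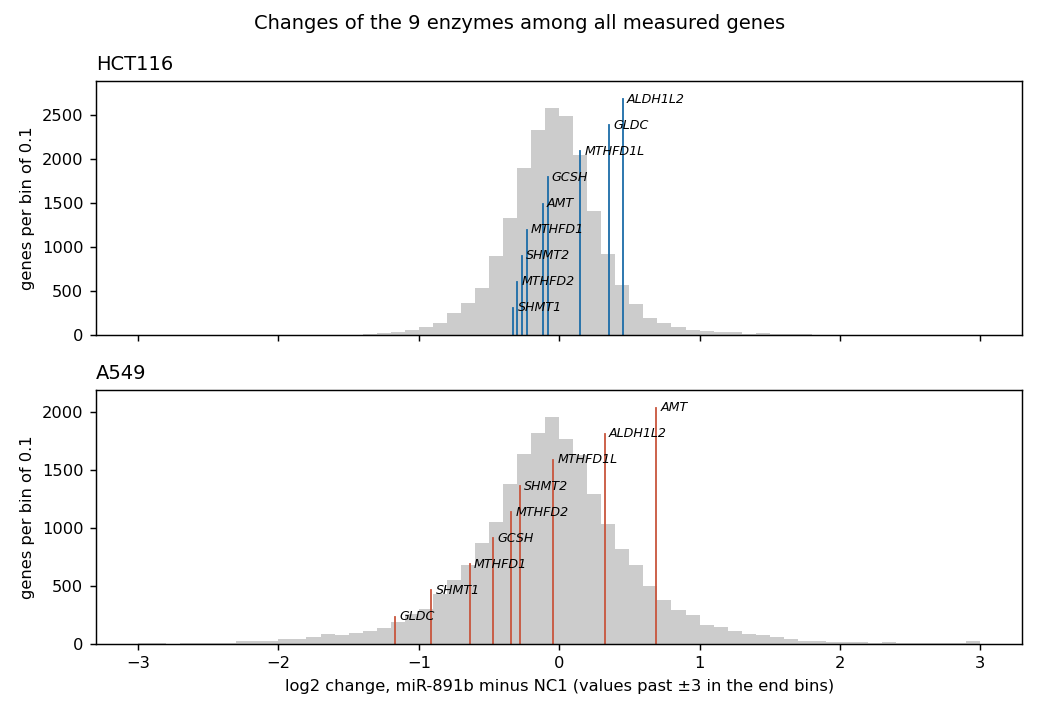
Histograms of the log2 change, miR-891b minus NC1, of all measured genes (grey, 19104 in HCT116 and 21335 in A549), with a vertical line for each of the 9 enzymes, whose heights only separate the names. In HCT116 the enzymes lie between -0.33 and 0.45, and in A549 between GLDC at -1.17 and AMT at 0.69.

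Both lines also entered 1 limma fit with additive effects of line and treatment and 1 residual degree of freedom, in which error comes from the disagreement between the lines, moderated across genes. For miR-891b, 0% of 22711 genes passed 0.05 after Benjamini-Hochberg adjustment, and 5.35% had an unadjusted p under 0.05. None of the 9 enzymes had an unadjusted p under 0.05. The lowest was that of SHMT1, with a limma coefficient of -0.62 ± 0.27 (SE) and an unadjusted p of 0.0823 (adjusted 0.793). When dim probes were kept, 6 genes passed the adjusted threshold, none of them one of the 9.

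**Figure D2:**
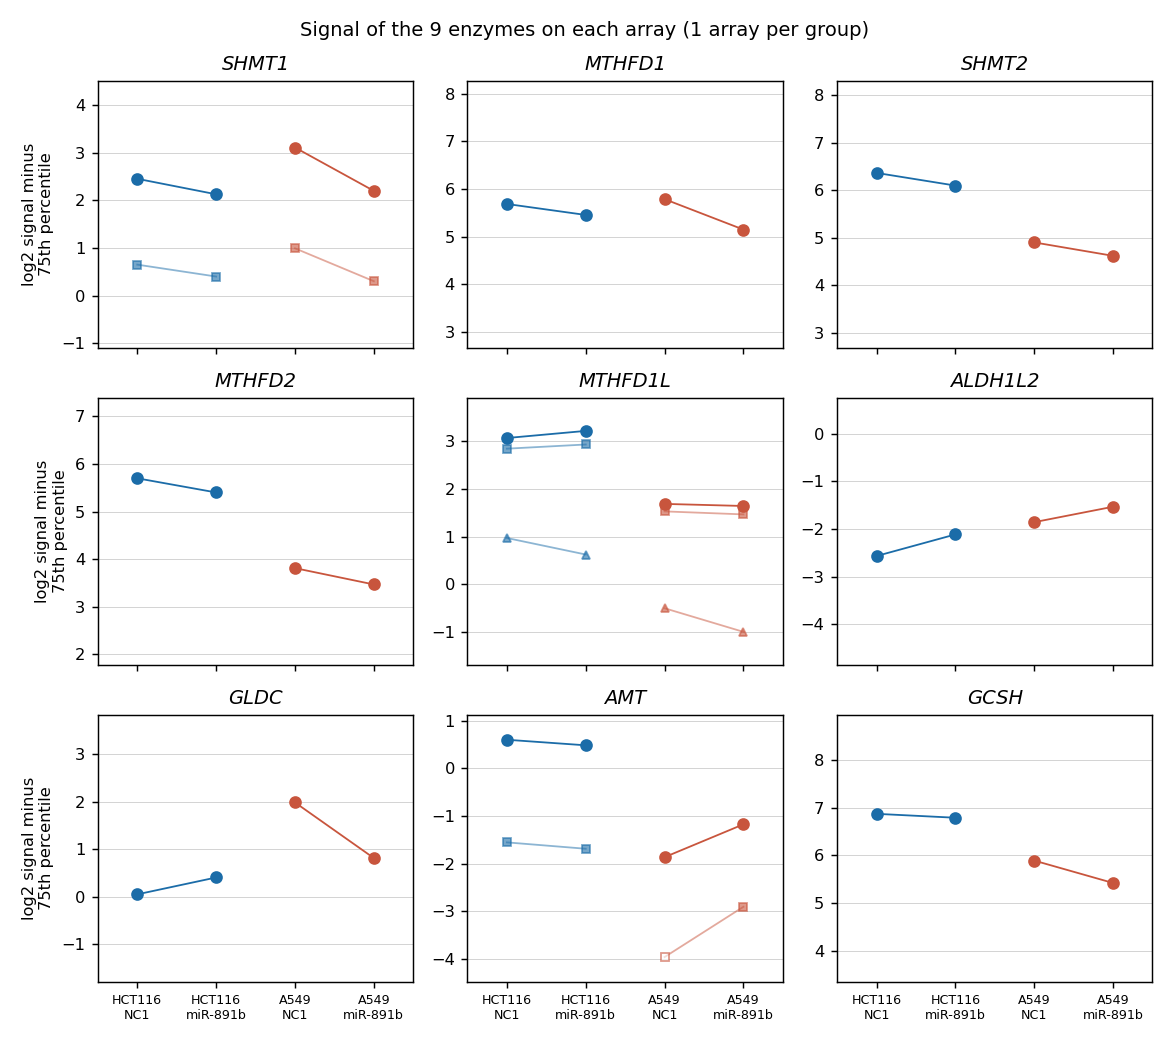
Log2 signal minus the array's 75th percentile on each of the 4 arrays, 1 panel per enzyme, each panel spanning the same number of log2 units around its own middle. Large circles are the probe that stands for the gene, squares and triangles its other probes, and the open square marks an AMT probe that was not well above background on A549 NC1. SHMT2, MTHFD2, MTHFD1L, AMT and GCSH are lower on both A549 arrays than on both HCT116 arrays.

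SHMT1 makes glycine from serine in the cytosol. Its level was 2.45 with NC1 and 2.13 with miR-891b in HCT116, and 3.11 and 2.20 in A549. A549 NC1 stood highest, while with miR-891b the lines differed by 0.072 (A549 minus HCT116). The change was -0.33 in HCT116 (spot SD 0.063) and -0.91 in A549 (spot SD 0.079), or 79.8% and 53.2% of NC1. Normexp with quantile normalization gave -0.21 in HCT116. Normexp was run with an offset of 50 added to each signal, which draws changes towards 0, most of all at dim probes. The changes of SHMT1 were smaller than 2-fold in both lines and larger than the error between spots. The probe lies at chr17:18231526-18231585 (hg19, minus strand). A second probe of SHMT1, at chr17:18236513-18236572, gave levels of 0.65, 0.40, 0.99 and 0.30 in the same order and changes of -0.25 and -0.69. It is shown because both probes, at different places in the gene, gave the same directions and the same order of the NC1 arrays.
SHMT1, second probe: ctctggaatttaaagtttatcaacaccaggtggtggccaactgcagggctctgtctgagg

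MTHFD1, the cytosolic enzyme that interconverts formate and the other folate-bound carbon units, had levels of 5.68 with NC1 and 5.45 with miR-891b in HCT116, and 5.78 and 5.15 in A549. The NC1 levels of the lines differed by only 0.10, and A549 miR-891b was the lowest. Its change was -0.23 in HCT116 (spot SD 0.051) and -0.64 in A549 (spot SD 0.064), so that the A549 value was 64.2% of NC1. Quantile normalization, with or without normexp, gave -0.40 in A549, which is smaller than 1.5-fold, and -0.14 with normexp in HCT116. With the main normalization both cytosolic enzymes thus had a lower change in A549 than in HCT116. So had every mitochondrial enzyme except AMT, and none of these differences was tested. Over all measured genes the changes also spread more in A549 (SD 0.61) than in HCT116 (SD 0.38). The MTHFD1 probe lies at chr14:64926496-64926555 (hg19).

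SHMT2, the mitochondrial serine hydroxymethyltransferase, had levels of 6.36 and 6.10 in HCT116 (NC1 and miR-891b) and 4.90 and 4.62 in A549. The changes were -0.27 in HCT116 and -0.28 in A549, with spot SDs of 0.051 and 0.064, and were close to each other. The size moved with the normalization: quantile normalization gave -0.077 in A549 and -0.15 in HCT116. Neither change reached 2-fold, and both A549 arrays lay below both HCT116 arrays. The probe lies at chr12:57628345-57628404 (hg19).

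MTHFD2, the dehydrogenase and cyclohydrolase of the mitochondrial pathway, was printed at 10 spots per array (probe at chr2:74441985-74442044, hg19), which gives it an error of its own. Over the spots its level was 5.70 ± 0.028 (SD, n = 10 spots) with NC1 and 5.40 ± 0.039 with miR-891b in HCT116, and 3.81 ± 0.062 and 3.47 ± 0.064 in A549. The spots of NC1 and miR-891b did not overlap in either line: they ran from 5.66 to 5.75 against 5.32 to 5.44 in HCT116, and from 3.71 to 3.90 against 3.37 to 3.57 in A549. The change was -0.30 ± 0.046 (SD over 10 spots) in HCT116 and -0.34 ± 0.081 in A549, and was below 0 at 10 of 10 spots in each line. Spots of an array share the culture and the labelling, so this error says nothing of how far another culture would differ. How many other repeated probes separate in the same way was not counted. Changes over all measured genes had SDs of 0.38 in HCT116 and 0.61 in A549, wider than these spot SDs. Such separation therefore need not be particular to MTHFD2. Stray signal surrounded 2 of the 10 spots on some array, and the 8 others gave -0.28 and -0.35. Quantile normalization reduced the A549 change to -0.21.

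**Figure D3:**
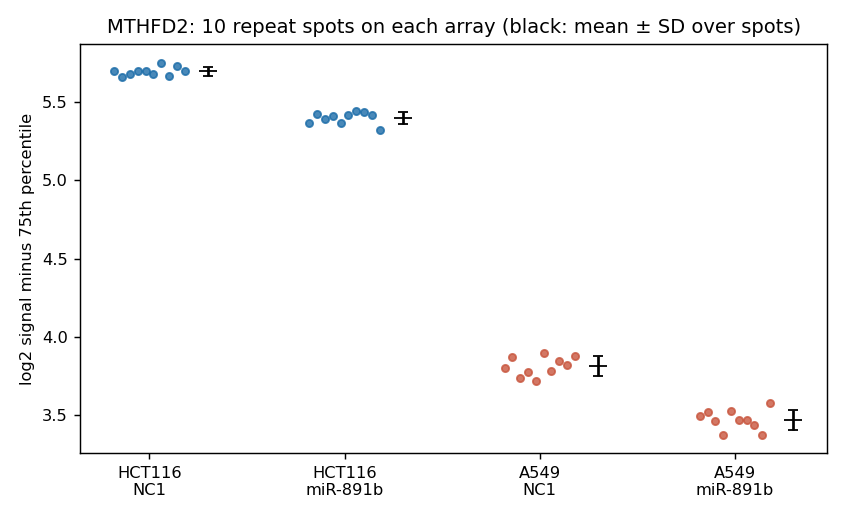
Log2 signal minus the 75th percentile of the 10 repeat spots of the MTHFD2 probe on each array (dots), with their mean and SD (black). The spots of NC1 and miR-891b are separate in both lines, and the A549 spots lie near 3.8 and 3.5 against 5.7 and 5.4 in HCT116. The share of other repeated probes that separate likewise was not counted.

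MTHFD1L makes formate in mitochondria, the last step before the carbon leaves the organelle. It has 3 probes, and their sequences are shown because they disagree on the change. They follow the gene from its start to its end on chromosome 6 (hg19, plus strand), at chr6:151206858-151209024, where the 60 bases span 2167 bases of genome and so cross an intron, at chr6:151358151-151358210 and at chr6:151413640-151413699. The capitals in the last mark a stop codon that ends its open reading frame of 16 codons, with 7 bases after it.
MTHFD1L, probe at the 5′ side: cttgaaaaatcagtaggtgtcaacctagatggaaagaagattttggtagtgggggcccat
MTHFD1L, middle probe: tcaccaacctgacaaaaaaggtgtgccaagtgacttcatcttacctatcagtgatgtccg
MTHFD1L, probe at the stop codon: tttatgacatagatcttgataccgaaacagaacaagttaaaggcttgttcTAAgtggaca

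The probe at the stop codon, which stands for the gene, gave levels of 3.07 and 3.22 in HCT116 (NC1 and miR-891b) and 1.69 and 1.64 in A549. Its changes were 0.15 and -0.044, the latter within the spot SD of 0.081. The middle probe was close to it, with changes of 0.088 and -0.063. The probe at the 5′ side gave levels of 0.97, 0.62, -0.50 and -0.9998 and changes of -0.35 and -0.50, with spot SDs of 0.087 and 0.095. So the 5′ probe was lower with miR-891b in both lines beyond the error between spots, while the other probes were not. All 3 probes were lower in A549 than in HCT116, by differences between -1.32 and -1.47 on the NC1 arrays. The direction of the MTHFD1L change itself is unsettled: with the mean over its probes it was -0.036 in HCT116 and -0.20 in A549, and quantile normalization, normexp with quantile normalization and median scaling turned the A549 value to between 0.015 and 0.032.

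ALDH1L2, which oxidises the formyl group on mitochondrial folate to carbon dioxide, had levels of -2.57 with NC1 and -2.11 with miR-891b in HCT116, and -1.86 and -1.53 in A549. It was the only one of the 9 above 0 in both lines, as 21.1% of genes were, with changes of 0.45 in HCT116 (spot SD 0.087) and 0.32 in A549 (spot SD 0.096). The processed signals were 9.26 and 13.2 intensity units in HCT116 and 20.7 and 25.7 in A549. Normexp background correction with quantile normalization gave changes of 0.074 and 0.11. At signals this dim the normexp offset of 50 draws any change towards 0, so these values cannot decide its size. The probe lies at chr12:105420340-105420399 (hg19, minus strand) and is shown as the only source of the ALDH1L2 values.
ALDH1L2: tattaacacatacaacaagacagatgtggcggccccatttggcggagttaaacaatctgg

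**Figure D4:**
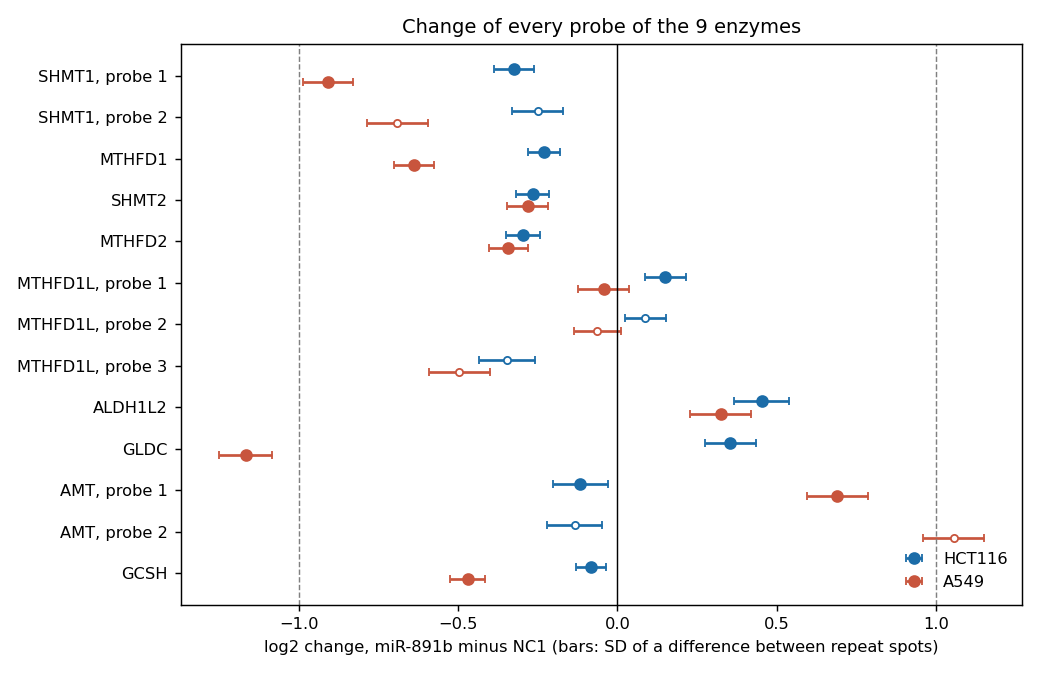
Log2 change, miR-891b minus NC1, of each of the 13 probes in HCT116 (blue) and A549 (red). Filled points are the probes that stand for a gene. Bars are the SD of a difference between repeat spots, from the repeated probes nearest in level, which for ALDH1L2 and AMT may be brighter. Dashed lines mark 2-fold. GLDC in A549 lies past 2-fold at -1.17; the second AMT probe at 1.06 was not well above background on A549 NC1, so its value there is only a bound.

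GLDC, the decarboxylase that starts glycine cleavage, had the most negative change of the 9. Its level was 0.051 with NC1 and 0.40 with miR-891b in HCT116, and 1.98 and 0.81 in A549, so that A549 NC1 stood apart from the other arrays. The change in A549 was -1.17 (spot SD 0.084), a level 2.25-fold lower, while in HCT116 it was 0.35 (spot SD 0.080), or 128% of NC1 (0.22 with normexp and quantile normalization). In A549 3.72% of measured genes had a more negative change. The difference between the lines was -1.52 (A549 minus HCT116) and was not tested. GLDC was called from 1 spot of 1 probe, at chr9:6532749-6532808 (hg19, minus strand), and the call was lost with normexp and quantile normalization, at -0.84. The normexp offset draws changes towards 0, so this loss alone does not decide whether the call holds.

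AMT, the aminomethyltransferase that moves the carbon of glycine to folate, had the opposite sign to GLDC in each line. Its level was 0.60 with NC1 and 0.48 with miR-891b in HCT116, and -1.87 and -1.18 in A549. The change was -0.12 in HCT116 (spot SD 0.087) and 0.69 in A549 (spot SD 0.096). Normexp with quantile normalization, whose offset draws changes of dim probes towards 0, gave -0.016 and 0.21. The spot, at chr3:49454435-49454494 (hg19, minus strand), lay in an area of stray signal on HCT116 miR-891b, where 16.9% of the nearby spots that were dim elsewhere were bright. A second probe lay outside such areas and gave -0.13 in HCT116; in A549 it was not well above background with NC1 and was at least 2.07-fold higher with miR-891b, taking as the NC1 level the higher of its own signal and the lowest signal well above background on that array.
AMT, second probe: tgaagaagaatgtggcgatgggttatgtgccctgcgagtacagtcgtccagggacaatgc

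GCSH, the protein that shuttles the lipoyl-bound intermediate between the other subunits, had levels of 6.87 and 6.79 in HCT116 (NC1 and miR-891b) and 5.89 and 5.42 in A549. Its change in HCT116 was -0.082 (spot SD 0.047), and in A549 it was -0.47 (spot SD 0.055). Quantile normalization gave -0.021 and -0.24. In A549 the subunits of glycine cleavage differed in sign, with GLDC and GCSH below 0 and AMT above. The probe lies at chr16:81115983-81116042 (hg19, minus strand). Human GCSH has processed copies elsewhere in the genome, and whether the probe also detects their transcripts was not tested.

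Differences between the lines were tested with the same fit. In the additive limma model 5 of the 9 enzymes were lower in A549 at a Benjamini-Hochberg adjusted p under 0.05, where 16.4% of 22711 genes were, and 0 were higher, where 15.5% were (31.9% either way). These 5, MTHFD2, AMT, SHMT2, MTHFD1L and GCSH, act in mitochondria, as do GLDC and ALDH1L2, which had no call. The error of this test again comes from the disagreement between the lines in the treatment change, moderated across genes. No group had a replicate array, so differences between cultures enter this error and were not measured apart from it.

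MTHFD2 had the smallest of these p-values, with an A549 minus HCT116 coefficient of -1.91 ± 0.23 (SE) and a limma adjusted p of 0.00835, a 3.76-fold difference. AMT had a coefficient of -2.06 ± 0.30 (limma adjusted p = 0.0137), and SHMT2 had -1.47 ± 0.23 (limma adjusted p = 0.0162). MTHFD1L followed with -1.48 ± 0.24 (limma adjusted p = 0.0166). For GCSH it was -1.18 ± 0.25 (limma adjusted p = 0.0326), a call that quantile normalization ended, with a coefficient of -0.88 and an adjusted p of 0.0584. The other 4 calls held under each alternative tried. The AMT coefficient was -0.94 with normexp and quantile normalization, whose offset shrinks differences of dim probes.

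Of the enzymes with no call, GLDC was higher in A549 by 1.93 on the NC1 arrays and by 0.41 on the miR-891b arrays (limma adjusted p = 0.113 for the line). ALDH1L2 was higher in A549 by 0.71 and 0.58 (limma adjusted p = 0.105). SHMT1 was higher by 0.66 and 0.072. MTHFD1 differed by 0.10 and -0.31, and its coefficient of -0.10 turned to 0.15 under quantile normalization and 0.13 with normexp. On both the NC1 and the miR-891b arrays SHMT2, MTHFD2, MTHFD1L and AMT were at least 2-fold lower in A549, 4 of 9, where 11.8% of 18063 genes were, and 0 were at least 2-fold higher on both, where 7.63% were. By single arrays, 4 of 9 were at least 2-fold lower and 1, GLDC, higher with NC1 (16.2% and 11.1% of genes), and 5 were lower and 0 higher with miR-891b (20.7% and 11.4%).

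**Figure D5:**
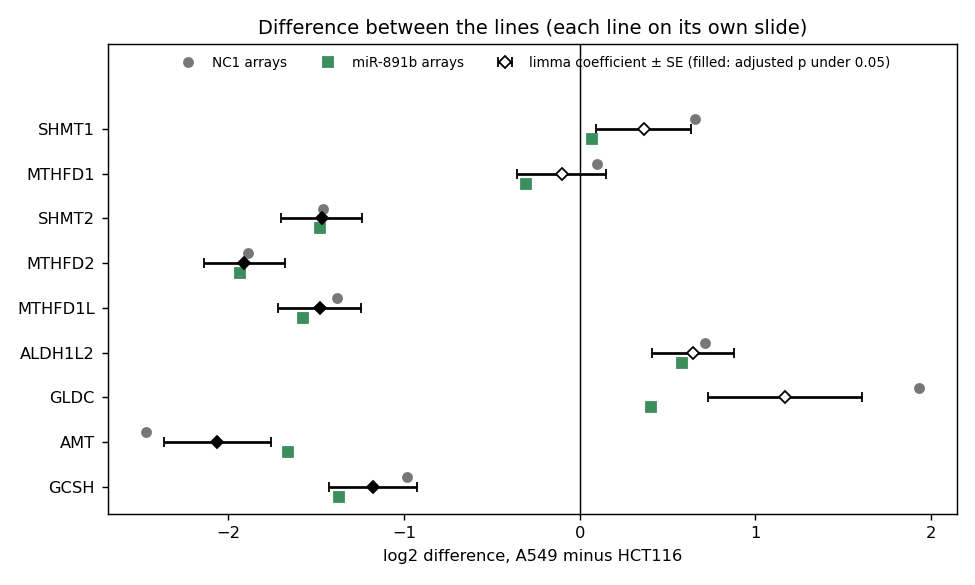
Log2 difference between the lines, A549 minus HCT116, for each enzyme on the NC1 arrays (circles) and on the miR-891b arrays (squares), with the coefficient and SE of the additive limma model (diamonds, filled where the adjusted p is under 0.05). SHMT2, MTHFD2, MTHFD1L, AMT and GCSH lie between -0.98 and -2.47, all to the left of 0; line, medium and slide coincide.

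The rest of the pathway was described from a list of 42 genes, all on the array, of which 35 were measured in each line. With miR-891b 0 of the 35 were at least 2-fold lower in HCT116 and 4 were in A549 (0.843% and 5.57% of all measured genes), and 0 were higher in either line (1.16% and 4.01%). Among these were PHGDH (-0.92 in HCT116 and -1.50 in A549) and PSAT1 (-0.81 and -1.58), both of serine synthesis, and TYMS (-0.078 and -1.72), which makes thymidylate with a folate-bound carbon. The PHGDH spot lay in an area of stray signal, with 12.03% of such nearby spots bright on the array where the share was highest. PSPH, the last enzyme of serine synthesis, had values of -0.27 and -0.59. The median over the 35 genes was -0.080 in HCT116 and -0.085 in A549, beside -0.041 and -0.059 over all measured genes. The remaining subunit of glycine cleavage, the lipoamide dehydrogenase DLD, had values of 0.15 and 0.10, and GART, ATIC and MTFMT, which use formyl-folate, lay between -0.16 and 0.32 in HCT116 and between -0.54 and -0.29 in A549.

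A few genes of the list were above background on only 1 array of a line. GNMT, a glycine methyltransferase, was well above background only on A549 miR-891b and was there at least 97.9-fold higher than with NC1, but its spot lay in an area where up to 28.6% of such nearby spots were bright. FOLR2, a folate receptor, was at least 3.64-fold higher with miR-891b in HCT116, where it was well above background only on that array. On the same array 11 of 308 negative control spots were also well above background, against 0 on HCT116 NC1. In the additive limma model 36 genes of the list were tested: 0 had an adjusted p under 0.05 for miR-891b, 13 were lower in A549 and 3 were higher, where 16.4% and 15.5% of all 22711 genes were. SLC19A1, the reduced folate carrier, was lower in A549 by a difference of -2.74 on the NC1 arrays (limma adjusted p = 0.00335), and MTHFD2L, the relative of MTHFD2, by -1.81 (limma adjusted p = 0.00885). CBS, which starts the conversion of homocysteine to cysteine, was higher in A549 by 4.88 on the NC1 arrays (limma adjusted p = 0.00107). For these genes the differences are from the NC1 arrays, and the p-values are for the line coefficient over all 4 arrays.

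GLDC had the largest mean size of change over both lines among the 9, and genes with a like pattern were ranked by Euclidean distance between centred profiles over the 4 arrays, among 18063 genes. Among the nearest were SNORA48 (distance 0.051), UBASH3B (0.17), ITGB1 (0.22) and FLJ45513 (0.26). The nearest of the other enzymes was SHMT1, at a distance of 0.955, with 1500 genes nearer. With 4 arrays such a ranking describes these arrays only.

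The promoters of 7 of the 9 enzymes were in the RefSeq table (GRCh38.p14; 250 bases before to 50 after the start), SHMT2 and ALDH1L2 being named only. They were searched on both strands for TGATGNAA, the composite element that ATF4 can bind, and for CACGTG, the E-box that MYC can bind; the motifs do not overlap. TGATGNAA was in 1 of 7, MTHFD1L, and in 3.62% of all 35116 promoters in the table. CACGTG was in 2 of 7, MTHFD1 and MTHFD1L, and in 7.26% of all promoters. An enzyme was counted once if any of its starts matched, which gives an enzyme with several starts more places to match. MTHFD1L has 4 starts in the table, and 3 of them share the stretch with both motifs, where the first reads TGATGCAA and begins at position -129, -90 or 24 from the start. A match is a description of the letters only, and nothing about a factor follows from it.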

How the data were processed

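Total RNA (100 ng per sample) was labelled with Cy3, per the labels, and hybridised to Agilent 1-colour arrays, and Feature Extraction 11.5.1.1 read the scans, per the submitters' processing notes. Each deposited scan table gives linear intensity per spot, with spatial trends removed within the array, per the file headers, which also give hg19 for the probe coordinates. The authors also deposited log2 values; how these were made is not given in the sources used here, and they differed from the main values by a median of 0.0069 or less per array, so scale, centring and direction were settled, and their column medians were -3.80, -3.60, -3.71 and -3.68. Samples were grouped by title. Outlier spots were left out, log2 processed signals were averaged per probe, and each array's 75th percentile over gene probes was subtracted. The probe with the highest mean stood for a gene, and a gene counted as measured in a line where both its arrays had that probe well above background. Changes were called at 2-fold. The additive model used limma 3.58.1 (lmFit, eBayes) in R 4.3.3 on genes well above background on at least 2 of 4 arrays, and was tested on simulated data. Other values were computed in Python 3.11.15. The number of arrays limits the precision. The members, lists and tests were chosen with earlier results of these data known. The genes named are the 9 enzymes, PHGDH, PSAT1 and PSPH, list genes past 2-fold and the 5 nearest in pattern to the enzyme with the largest mean change; others were named after their values were seen, and a few results are not reported here.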

Additional observations from a re-analysis of the deposited data

Results flagged for a closer look

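In 3 of the 9 enzymes the change with miR-891b had opposite signs in HCT116 and A549, as in 45.1% of the 18063 genes measured on all 4 arrays, and none of these differences was tested. For GLDC the changes were 0.35 in HCT116 and -1.17 in A549, a difference of -1.52 (A549 minus HCT116). For AMT the changes were -0.12 and 0.69, a difference of 0.81, and its HCT116 value came from a spot in an area of stray signal. For MTHFD1L they were 0.15 and -0.044, a difference of -0.19, and its sign in each line turned under at least 1 alternative.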

How the results depend on the processing

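Every alternative was compared with the main setting over all measured genes. Normexp added an offset of 50 to each signal, which by itself draws changes towards 0, most of all at dim probes. The number of genes at least 2-fold changed in HCT116 was 382, against 39 with normexp and quantile normalization, 4222 with no filter on dim probes, 1827 at 1.5-fold and 81 at 3-fold; in A549 it was 2043, against 764, 6013, 5627 and 550. The share of those HCT116 genes that were higher was 57.9%, against 69.2% with normexp and quantile normalization, 64.3% with median scaling and 49.1% without areas of stray signal; with quantile normalization 187 were higher and 187 lower. GLDC was the only enzyme at least 2-fold lower in A549; with normexp and quantile normalization 0 were, at 1.5-fold 3 were and at 3-fold 0 were. The A549 median of the 9 was -0.34, against -0.21 with quantile normalization and -0.20 with normexp and quantile normalization. The change of MTHFD1L in A549 turned to 0.015 with quantile normalization, 0.032 with normexp and quantile normalization and 0.019 with median scaling, and in HCT116 to -0.036 with the mean over probes. The MTHFD1 difference between the lines turned to 0.15 with quantile normalization and 0.13 with normexp and quantile normalization. In the additive limma model 0 genes passed for miR-891b, and 6 did when dim probes were kept. The other changes of single enzymes were set against the median spot SD of each line, 0.071 in A549 and 0.062 in HCT116. By that measure 53 values in A549 and 62 in HCT116 moved by less, and 15 and 9 moved by more, keeping their sign. The cause of these moves was not tested. Part of the lower moves was fixed in advance. Settings that changed only the filter on dim probes returned the main value of each enzyme. The mean over probes did so for the 6 enzymes with 1 probe. These counts are therefore no measure of how stable the changes are. Without areas of stray signal 8 enzymes were left in A549. The additive limma fit compared the treatments within the lines, which pairs the arrays of each line. No further pairing was possible because the labels carry no replicate numbers and each group has 1 array. Levels near background, as for ALDH1L2 and the second AMT probe, limit what a change can show.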

Other observations

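Some genes of the pathway list, named after their values were seen, had changes of opposite sign in the lines without reaching 2-fold. FOLR1, a folate receptor, had values of -0.63 in HCT116 and 0.69 in A549, and MAT1A, a methionine adenosyltransferase, values of -0.90 and 0.71. None of these differences between the lines was tested.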
